A study of Homo sapiens with 18 samples.

Results

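The chemokine receptor genes CXCR4 and ACKR3 and the gene of their shared ligand, CXCL12, were examined in 18 RNA-seq libraries of SH-SY5Y, a long-established neuroblastoma line of human origin. The 3 genes were taken by symbol from a table of 58735 genes, and were selected on their levels by library in these same data, where earlier results showed that the receptors differ with the code that ends the library name. The cells carried no engineered allele (wild type in the labels), and all of them, Control included, had been turned neuron-like by all-trans retinoic acid, given at 10 µM over 7 days. They then received for 15 min morphine at 193 nM, metamorphine at 169 nM, TRV130 at 200 nM, beta-endorphin at 200 nM, naloxone at 200 nM or water (Control). Morphine is an opioid receptor agonist, TRV130 (oliceridine) an agonist developed to favour G protein signalling, beta-endorphin an endogenous opioid peptide and naloxone an opioid receptor antagonist. Each of the 6 groups held 3 libraries from 1 line, and the labels do not say whether these were separate cultures, so every p-value measures the spread between libraries, which may be technical. Library names end in 1 of 3 number codes, here called A (7 libraries), B (6 libraries) and C (5 libraries), and the labels do not say what the codes stand for. Replicates 1, 2 and 3 were codes A, B and C in every group except TRV130, whose replicates 1 and 2 were code A and whose replicate 3 was code B.

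CXCR4 is a receptor coupled to inhibitory G proteins that draws cells along gradients of the chemokine CXCL12, and in the developing nervous system it steers migrating neuroblasts and interneurons. ACKR3, formerly CXCR7, binds CXCL12 too, but it signals through arrestins rather than G proteins and takes the ligand up for degradation, which shapes the gradient that CXCR4 reads. ACKR3 is also known to bind and remove opioid peptides. In neuroblastoma CXCR4 is best known for its part in homing to bone marrow.

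CXCR4 (ENSG00000121966) lies on the minus strand of chromosome 2, at 136114349 to 136118165 of GRCh38. ACKR3 (ENSG00000144476) lies on the plus strand of the same chromosome, at 236567787 to 236582358. CXCL12 (ENSG00000107562) lies on the minus strand of chromosome 10, at 44370165 to 44386493. No other annotated gene overlapped any of the 3, which matters because the libraries carry no strand. Upstream sequences are shown for CXCR4 and CXCL12 as the members with an entry in the RefSeq promoter table (GRCh38.p14), which was searched for short motifs of factors known for these promoters. Capitals mark GC boxes, the NRF1 palindrome, the TATA box, the G form of the hypoxia core and the nuclear receptor half-site. The CXCR4 stretch is chr2:136118166-136118399, the 234 bases that end where the annotated gene begins. The CXCL12 stretch is chr10:44385098-44385347, the 250 bases before the RefSeq start, and lies within the annotated gene because a longer transcript begins upstream.
CXCR4: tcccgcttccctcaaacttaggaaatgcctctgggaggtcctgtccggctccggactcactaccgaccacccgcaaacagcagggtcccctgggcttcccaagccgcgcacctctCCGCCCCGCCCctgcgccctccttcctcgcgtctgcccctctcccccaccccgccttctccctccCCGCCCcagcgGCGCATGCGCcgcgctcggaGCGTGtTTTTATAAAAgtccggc
CXCL12: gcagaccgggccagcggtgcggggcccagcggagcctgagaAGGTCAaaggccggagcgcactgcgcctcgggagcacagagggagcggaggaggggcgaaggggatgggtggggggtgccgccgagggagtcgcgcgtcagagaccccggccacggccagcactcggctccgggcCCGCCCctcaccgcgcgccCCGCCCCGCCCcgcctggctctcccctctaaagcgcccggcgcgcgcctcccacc

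The CXCR4 stretch was 68.4% G or C and held 1 copy of the palindrome of NRF1, a factor reported to drive CXCR4 transcription, which is the half-site GCGCA joined to its reverse complement. It starts 43 bases before the gene and stood in 1.03% of the windows of 250 bases before the start in 35116 promoter entries, searched on both strands. The same stretch held 2 overlapping matches to TATAAAA, a motif found in 4.18% of entries, and 1 match to GCGTG, found in 32.2%. The CXCL12 stretch was 78.0% G or C and held 1 match to AGGTCA, the half-site of nuclear receptors such as that of retinoic acid, which 12.1% of entries share. Each stretch held 3 matches to the GC box GGGCGG, found in 42.6% of entries. The hypoxia core ACGTG, found in 18.5% of entries, was in neither window. These matches describe the letters of the windows only.

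Between 21211449 and 33123855 counts were assigned in each library, and 23231 genes had enough counts to be tested. Levels are given as CPM (counts relative to library size, after TMM scaling), and levels of different genes are compared as RPKM, which divides CPM by exon length. The 12 neuronal and noradrenergic markers all averaged at least 1 CPM and summed to 6371 to 8744 CPM, while 8 of 10 mesenchymal markers reached 1 CPM and summed to 467.0 to 693.1 CPM. Among markers of cells outside the line, 0 of 8 endothelial and 2 of 8 immune markers averaged at least 1 CPM, and likewise 1 of 6 epithelial and 3 of 8 Schwann cell and glial markers. All 4 of these lists were highest in Control replicate 1, the Control library of code A. Their sums there were 9.67 CPM (endothelial), 14.17 CPM (immune), 15.07 CPM (epithelial) and 13.85 CPM (glial). In RNA from whole cultures, fewer cells that express a gene and less RNA per cell cannot be told apart.

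All 3 genes were detected in every library, at modest levels. Counts ran from 123 to 736 for CXCR4, from 68 to 217 for ACKR3 and from 141 to 347 for CXCL12, so that counting error alone was 3.69% to 9.02%, 6.79% to 12.1% and 5.37% to 8.42% of each gene's count. Per length, CXCR4 had the highest mean level of the 3, at 5.00 RPKM (2.44 to 11.3 over the 18 libraries). ACKR3 averaged 2.19 RPKM (1.30 to 3.37) and CXCL12 averaged 1.48 RPKM (1.07 to 1.86). These ranges overlap, so the order of the means did not hold in every library. Among 14969 tested protein-coding genes, the mean RPKM of CXCR4 ranked at percentile 49.9, that of ACKR3 at 30.5 and that of CXCL12 at 23.9.

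CXCR4 differed most between the library codes. In code A its level was 12.4 CPM with morphine, 14.4 CPM with metamorphine, 24.6 and 25.1 CPM with TRV130, 11.8 CPM with beta-endorphin, 17.0 CPM with naloxone and 16.3 CPM in Control. In code C it was 9.85 CPM with morphine, 8.04 CPM with metamorphine, 7.91 CPM with beta-endorphin, 8.93 CPM with naloxone and 8.90 CPM in Control. In code B it was 6.74 CPM with morphine, 5.62 CPM with metamorphine, 5.67 CPM with TRV130, 5.76 CPM with beta-endorphin, 5.77 CPM with naloxone and 5.44 CPM in Control. Every code A library was thus above every code C library, and every code C library above every code B library, whatever the treatment. The means were 17.4 ± 5.43 CPM in code A (SD, n = 7), 8.73 ± 0.788 CPM in code C (SD, n = 5) and 5.83 ± 0.462 CPM in code B (SD, n = 6). The mean log2 CPM of code A was 1.51 above that of code B, a 2.84-fold difference, and 0.93 above that of code C. Of all tested genes, 0.659% were at least 1 higher in code A than in code B on this scale. A complete separation of code A above code B was seen for 4.90% of all tested genes, of code A above code C for 6.13% and of code C above code B for 22.4%. The order A above C above B without overlap was met by 7 genes, or 0.0301% of those tested: CXCR4, the DNA replication gene CDC45, the isoprenoid synthesis gene FDPS, the cell cycle transcription factor MYBL2, the tubulin gene TUBB, OLFM1 and the antisense RNA AC023593.1. The genes were chosen with this pattern known, so it is a description and was given no test. Without both TRV130 libraries, code A still averaged 14.4 ± 2.29 CPM (SD, n = 5), with a lowest value of 11.8 CPM.

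**Figure D1:**
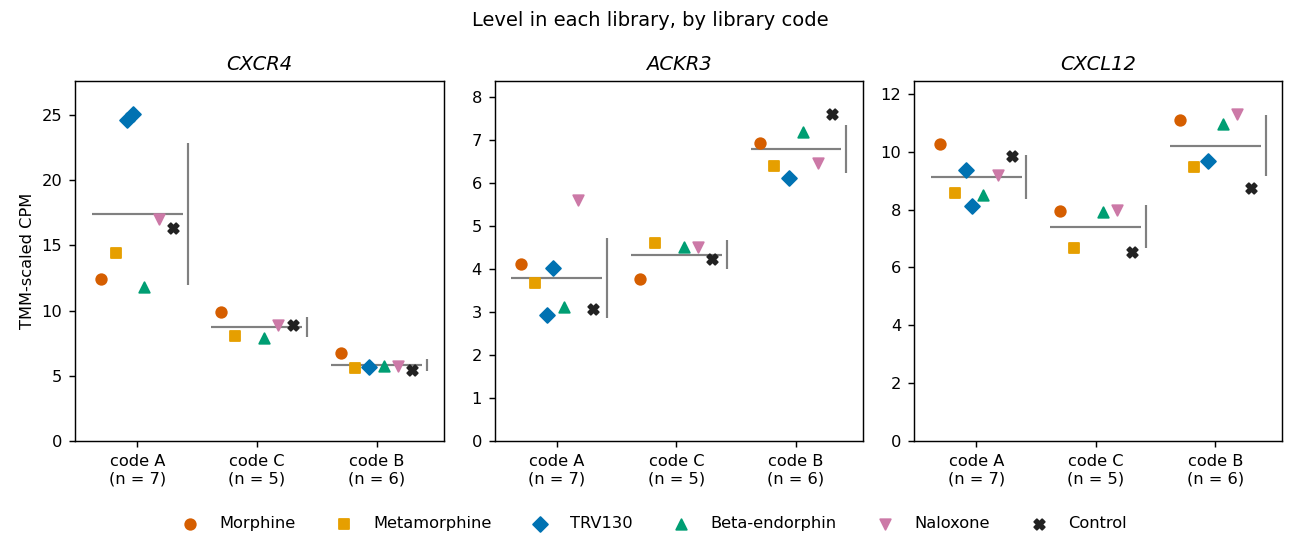
TMM-scaled CPM (y axis, from 0) of CXCR4, ACKR3 and CXCL12 in each of 18 libraries by library code (x axis), with symbols for the 5 ligands and Control, a line at the mean and a bar of 1 SD. CXCR4 steps down over codes A, C and B without overlap, ACKR3 is highest in code B, and CXCL12 stays between 6.53 and 11.3 CPM.

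ACKR3 ran the other way. In code A it was 4.12 CPM with morphine, 3.67 CPM with metamorphine, 2.94 and 4.02 CPM with TRV130, 3.12 CPM with beta-endorphin, 5.60 CPM with naloxone and 3.06 CPM in Control. In code C it was 3.77 CPM with morphine, 4.59 CPM with metamorphine, 4.52 CPM with beta-endorphin, 4.50 CPM with naloxone and 4.24 CPM in Control. In code B it was 6.93 CPM with morphine, 6.39 CPM with metamorphine, 6.11 CPM with TRV130, 7.18 CPM with beta-endorphin, 6.46 CPM with naloxone and 7.60 CPM in Control. The code B libraries were above all libraries of the other codes, whereas codes A and C overlapped. The means were 3.79 ± 0.926 CPM in code A (SD, n = 7), 4.32 ± 0.336 CPM in code C (SD, n = 5) and 6.78 ± 0.560 CPM in code B (SD, n = 6). On the log2 scale the mean of code A was -0.85 relative to code B, and that of code C was -0.64 relative to code B. Complete separation of code A below code B was seen for 3.27% of tested genes, of code C below code B for 20.3%, and of code B above both other codes for 2.55%. The summed mesenchymal markers also separated codes A and B, at 467.0 to 607.1 CPM in code A, 554.0 to 638.1 CPM in code C and 626.4 to 693.1 CPM in code B. Of the 8 tested, DCN, PDGFRA and PDGFRB were each below in code A against code B, and the others overlapped. Of those, COL1A1, COL3A1 and LUM had lower means in code A. TWIST1, at 159.3 CPM in code A and 136.7 CPM in code B, and THY1, at 59.6 and 43.8 CPM, had higher ones. Of the 12 neuronal and noradrenergic markers 3 were above in code A against code B and 2 below. Over all tested genes 4.90% were above and 3.27% below. The part of these markers in the ACKR3 and CXCR4 levels was not tested.

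Since CXCR4 and ACKR3 have nearly the same exon length, 2.224 and 2.258 kb, their levels can be set against each other within a library. The ratio of CXCR4 to ACKR3 in RPKM was 3.06 at the lowest, 3.98 at the median and 8.50 at the highest in code A. In code C it was 1.78 at the lowest, 2.02 at the median and 2.65 at the highest. In code B it was 0.726 at the lowest, 0.899 at the median and 0.987 at the highest. The ratio was thus under 1 in all 6 code B libraries and above 1 in the other 12 libraries. Some code B ratios lay within counting error of 1. With morphine there were 211 counts of CXCR4 and 217 of ACKR3, with counting errors of 6.88% and 6.79%. The code B Control had 123 and 172 counts, with errors of 9.02% and 7.63%. In the Control libraries alone the same order was seen, with a ratio of 5.41 in code A, 2.13 in code C and 0.726 in code B.

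**Figure D2:**
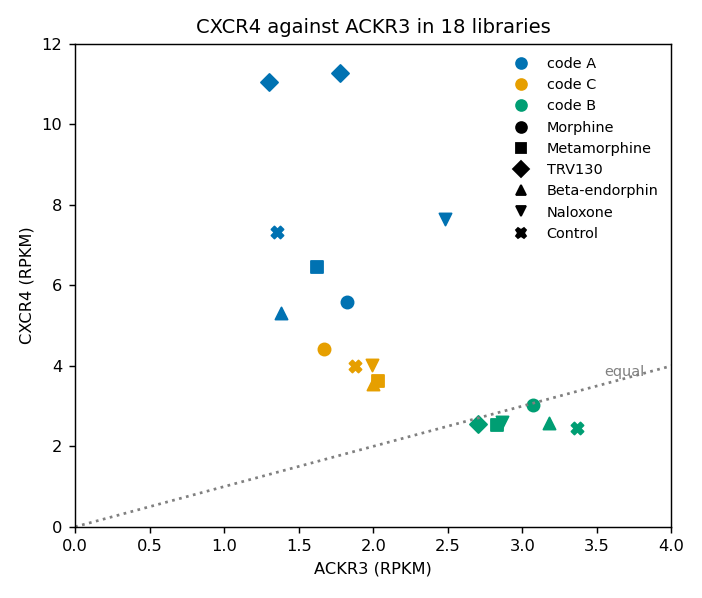
RPKM of CXCR4 (y axis) against that of ACKR3 (x axis) in 18 libraries, coloured by library code, with a symbol for each group and a dotted line where the levels are equal. The code B points lie under the line, and the code A points lie highest, with both TRV130 libraries of code A at the top.

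CXCL12, the ligand, varied least. In code A it was 10.3 CPM with morphine, 8.59 CPM with metamorphine, 9.35 and 8.14 CPM with TRV130, 8.51 CPM with beta-endorphin, 9.19 CPM with naloxone and 9.85 CPM in Control. In code C it was 7.97 CPM with morphine, 6.67 CPM with metamorphine, 7.91 CPM with beta-endorphin, 7.99 CPM with naloxone and 6.53 CPM in Control. In code B it was 11.1 CPM with morphine, 9.48 CPM with metamorphine, 9.68 CPM with TRV130, 10.9 CPM with beta-endorphin, 11.3 CPM with naloxone and 8.75 CPM in Control. Codes A and B overlapped, and every code C library was below every library of the other 2 codes, as was so against code A for 6.13% of tested genes and against code B for 20.3%. With scaling by plain totals codes A and C overlapped, since a TRV130 library of code A (replicate 2) had 7.21 CPM and the highest code C library 7.97 CPM. The means were 9.13 ± 0.765 CPM in code A (SD, n = 7), 7.41 ± 0.744 CPM in code C (SD, n = 5) and 10.2 ± 1.05 CPM in code B (SD, n = 6). Over all 18 libraries the SD was 15.4% of the mean for CXCL12, against 55.6% for CXCR4 and 30.6% for ACKR3. Library code accounted for 85.8% of the variance of log2 CPM of CXCR4, 77.0% of that of ACKR3 and 67.3% of that of CXCL12, while the median over tested genes was 43.4%.

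The first question put to the ligand groups was whether any of the 3 transcripts differed from Control after 15 min. None passed in any comparison: the smallest p adjusted by Benjamini-Hochberg was 0.744 in edgeR's quasi-likelihood test, for CXCL12 and the mean of the 5 ligands. The background was the same, since 0.0% of the 23231 tested genes were called in any comparison with Control or among the 6 groups. By unadjusted p under 0.05, 944 genes were counted for morphine, 1820 for metamorphine, 430 for TRV130, 2198 for beta-endorphin, 1545 for naloxone, 2654 for the mean of the 5 ligands and 565 for any difference among the groups. DESeq2 called 1 gene for TRV130, 1 for beta-endorphin, 1 for naloxone, 12 for the mean and 9 for any difference, and none of these calls was CXCR4, ACKR3 or CXCL12.

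For CXCR4 the largest difference was that of TRV130. The group averaged 18.4 ± 11.1 CPM with TRV130 and 10.2 ± 5.54 CPM in Control (SD, n = 3 each), a log2 fold change of 0.85 with an SE of 0.55 and a 95% interval from -0.31 to 2.01 (edgeR, adjusted p = 0.9996). That group has 2 libraries of code A, the code where CXCR4 is high in every treatment, and Control has 1. Set against Control of the same code, the TRV130 libraries differed by 0.59 and 0.62 on the log2 scale in code A and by 0.060 in code B. Both TRV130 libraries of code A were above the 5 other code A libraries, as was so for 6.90% of tested genes, while in code B the TRV130 library lay within the range of the others. With library code in the edgeR model the log2 fold change was 0.49, with an SE of 0.20 and an interval from 0.073 to 0.90 (unadjusted p = 0.0239, adjusted p = 0.977). The genes were chosen with their levels in these libraries known, so this interval and its unadjusted p are descriptions only. Both TRV130 libraries of code A had high shares of counts on mitochondrial genes, 17.7% and 15.6%, against 6.15% to 13.3% in the other code A libraries. The Control library of code B had 15.7%, with the lowest CXCR4 level of all 18 libraries, 5.44 CPM. In the TRV130 libraries of code A (replicates 1 and 2) the summed immune markers were 10.61 and 9.60 CPM. They were 5.13 to 5.90 CPM in the other ligand libraries of code A and 14.17 CPM in its Control. The other lists did not share this pattern. Summed endothelial markers were lower in both TRV130 libraries than in every other code A library. Epithelial sums were 5.479 and 2.826 CPM, against 2.799 to 3.763 CPM in the other ligand libraries of code A. Glial sums were 9.314 and 8.102 CPM, against 6.691 to 9.063 CPM. The part of these measures in the CXCR4 value was not tested. Of the 8 immune markers CD68 averaged 4.15 CPM and CD14 2.39 CPM, and the other 6 averaged under 1 CPM. Summed over the 18 libraries, those 6 had from 3 counts (MS4A1) to 218 counts (CD79A), and PTPRC had 9.

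For the other ligands the group means of CXCR4 lay close to that of Control, but with wide intervals. It averaged 9.67 ± 2.85 CPM with morphine, 9.35 ± 4.53 CPM with metamorphine, 8.49 ± 3.07 CPM with beta-endorphin, 10.6 ± 5.80 CPM with naloxone and 10.2 ± 5.54 CPM in Control (SD, n = 3 each). Log2 fold changes were -0.080 for morphine, -0.13 for metamorphine, -0.27 for beta-endorphin and 0.050 for naloxone, each with an SE near 0.55. The interval for morphine ran from -1.24 to 1.08, so a change of 2-fold in either direction lay within it. With library code in the model it ran from -0.37 to 0.43. Within code B all 5 ligand libraries were above Control, by 0.047 to 0.31 on the log2 scale, as they were for 24.7% of tested genes. In code A 3 of 6 ligand libraries were above it (4 of 6 with scaling by plain totals) and in code C 2 of 4, so no direction was shared by the codes.

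ACKR3 averaged 4.94 ± 1.73 CPM with morphine, 4.88 ± 1.38 CPM with metamorphine, 4.35 ± 1.61 CPM with TRV130, 4.94 ± 2.06 CPM with beta-endorphin, 5.52 ± 0.982 CPM with naloxone and 4.97 ± 2.36 CPM in Control (SD, n = 3 each). Its largest log2 fold changes were -0.19 for TRV130 (SE 0.39, interval -1.02 to 0.64) and 0.15 for naloxone (SE 0.39, interval -0.68 to 0.98). The naloxone library of code A was the highest of its code at 5.60 CPM, 0.86 above Control on the log2 scale, while the naloxone libraries of codes B and C differed from their Controls by -0.23 and 0.086. In code A 5 of 6 ligand libraries were above Control, in code C 3 of 4 and in code B 0 of 5. All ligand libraries of code B were below Control for 27.3% of tested genes. Where libraries are scaled by their plain totals, 1 of the 5 code B libraries was above Control.

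CXCL12 averaged 9.77 ± 1.62 CPM with morphine, 8.25 ± 1.44 CPM with metamorphine, 9.06 ± 0.814 CPM with TRV130, 9.12 ± 1.61 CPM with beta-endorphin, 9.50 ± 1.68 CPM with naloxone and 8.38 ± 1.69 CPM in Control (SD, n = 3 each). The log2 fold change was 0.22 for morphine (SE 0.22, interval -0.24 to 0.68, edgeR adjusted p = 0.830) and 0.18 for naloxone (SE 0.22, interval -0.28 to 0.64, edgeR adjusted p = 0.771). It was -0.023 for metamorphine, 0.11 for TRV130 and 0.12 for beta-endorphin. All 9 ligand libraries of codes B and C were above Control of their code, by 0.032 to 0.37 on the log2 scale, as was so for 5.31% of tested genes. In code A 1 of 6 was above Control under TMM or RLE scaling and 4 of 6 under plain totals, so the direction there depends on the scaling. The TMM factor of the Control library of code A was 0.873. For the mean of the 5 ligands the log2 fold change was 0.12 (SE 0.17, interval -0.24 to 0.48), a span that leaves out a change of 1.5-fold in either direction.

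**Figure D3:**
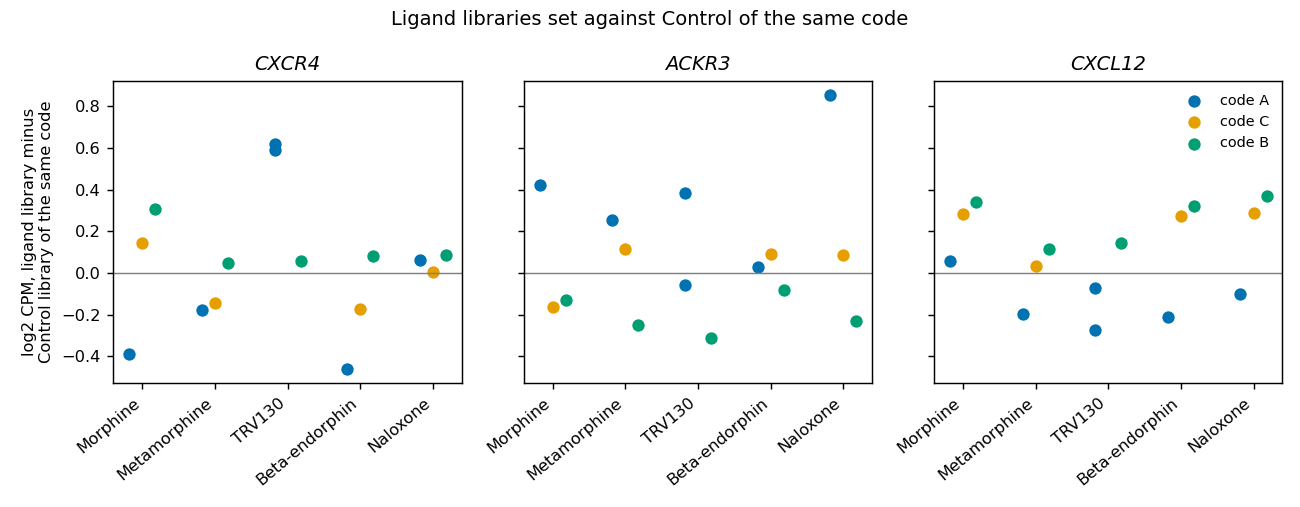
Log2 CPM of each of 15 ligand libraries minus that of the Control library with the same code (y axis), by ligand (x axis) and coloured by code, for the 3 genes. Both code A points of TRV130 stand highest for CXCR4, naloxone of code A stands highest for ACKR3, and the code B and C points of CXCL12 lie above 0.

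**Figure D4:**
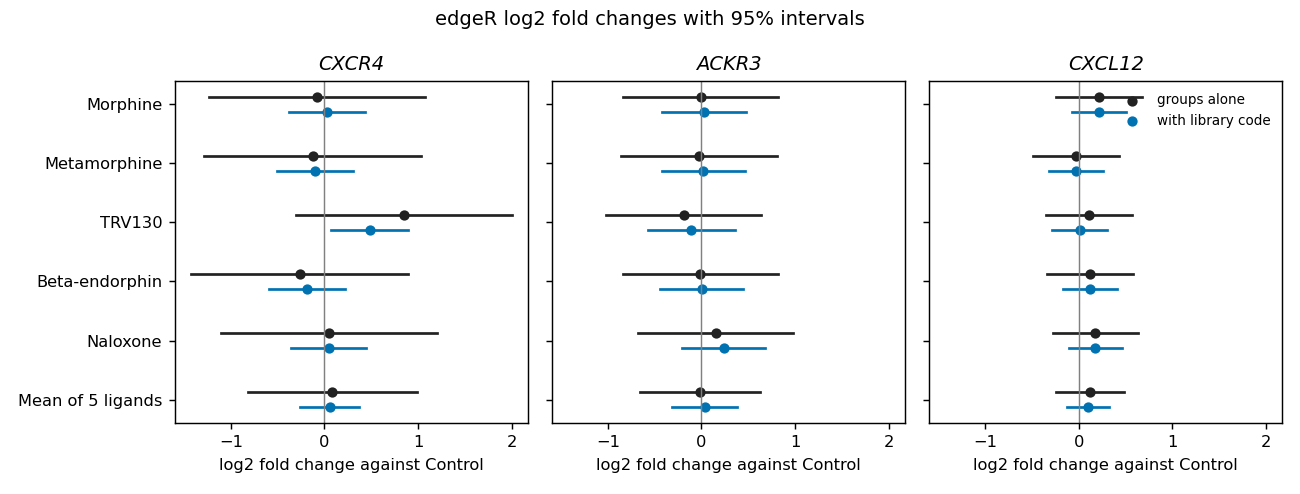
Log2 fold change against Control (x axis) with its 95% interval from edgeR for the 5 ligands and their mean (rows), fitted with groups alone (black) or with library code (blue). All intervals include 0 except that of CXCR4 and TRV130 with library code, from 0.073 to 0.90 (edgeR, adjusted p = 0.977). Intervals are not adjusted for their number, and the genes were chosen with their levels in these libraries known.

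The other members of the chemokine family were few in these cells. Of 22 other chemokine receptors, 8 had enough counts to be tested, 12 had counts below that level, with at most 14 in a library, and 2 had none. The highest was CXCR5, the receptor that guides B cells to follicles, at 15.6 CPM or 3.52 RPKM, but its gene overlaps BCL9L and the reads cannot be told apart without strand. CCR10, at 1.52 RPKM, overlaps CNTNAP1, and ACKR4, a scavenging receptor at 1.19 RPKM, lies in ACAD11, so both are likewise uncertain. Of 37 other chemokine ligands, 4 were tested, 22 had counts below that level and 11 had none. CX3CL1, the membrane-bound neuronal chemokine, averaged 6.51 CPM or 1.09 RPKM, and CCL2, which attracts monocytes, averaged 3.25 CPM or 1.64 RPKM, and neither overlaps another gene. CCL27, at 2.02 RPKM, overlaps IL11RA, and CXCL16, at 1.27 RPKM, overlaps MED11. Among these 12 tested genes 0 passed against Control for any ligand, and 0 were separated between codes A and B, where 4.90% of all tested genes were above and 3.27% below.

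**Figure D5:**
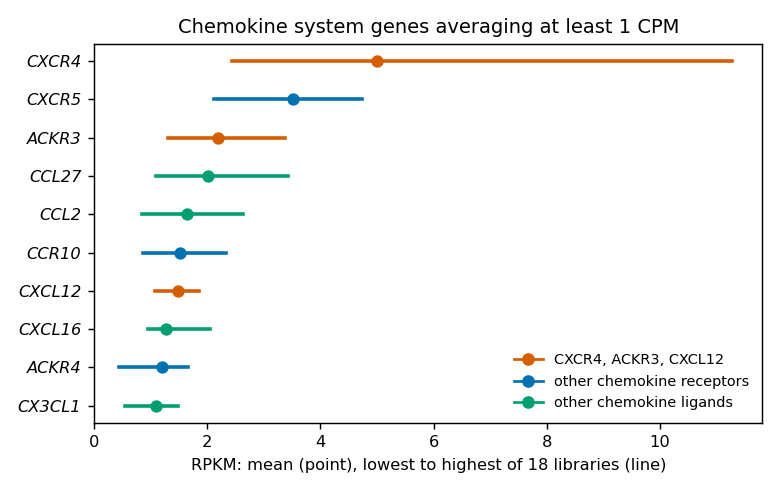
RPKM (x axis) of CXCR4, ACKR3 and CXCL12 and of the other chemokine receptors and ligands that averaged 1 CPM or more (rows), as the mean (point) and the span over 18 libraries (line). CXCR4 has the highest mean, 5.00 RPKM, and the widest span, 2.44 to 11.3 RPKM.

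Other ligands and partners of both receptors were listed separately, and 10 of 16 were tested. MIF, an inflammatory cytokine that also binds CXCR4, averaged 459.7 CPM and 414.5 RPKM. Its means of 566.0 CPM in code A, 543.1 CPM in code C and 266.1 CPM in code B put code A above code B without overlap. HMGB1, which forms a complex with CXCL12, averaged 353.5 CPM and was likewise above in code A against code B, at 358.3 CPM in code A and 241.7 CPM in code B, but highest in code C, at 480.9 CPM. Both genes overlap other annotated genes. Of the 10 tested, these 2 were above in code A against code B without overlap and 0 were below. Over all tested genes 4.90% were above. RAMP1, a receptor partner protein, averaged 352.6 CPM, and the syndecan SDC1, a heparan sulfate carrier that holds chemokines at the cell surface, 60.3 CPM. PENK, PDYN, PNOC and POMC, the opioid peptide precursors whose products ACKR3 can bind, had at most 16 counts in a library and were not tested. The receptor CD74 for MIF had at most 12 counts. None of the 10 passed in any comparison with Control, and their median log2 fold changes ran from -0.26 to -0.12, against -0.044 to -0.020 over all tested genes.

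The genes through which CXCR4 signals were well expressed. Of 31 G protein and kinase genes 29 were tested, led by the G protein subunit GNB1 at 594.2 CPM, the GTPase RAC1 at 331.5 CPM and the kinase AKT1 at 232.4 CPM. Of 20 genes of receptor phosphorylation, arrestins and endosomal sorting 19 were tested, led by HGS, which sorts ubiquitinated CXCR4 to lysosomes, at 262.4 CPM, and by RAB7A at 199.4 CPM. RGS4, which quenches inhibitory G proteins, averaged 190.8 CPM in code A, 196.3 CPM in code C and 113.2 CPM in code B, and VPS4A averaged 137.0 CPM. Of these 19 genes 5, RGS4 among them, were above in code A against code B without overlap, and 1 was below. Of the 29 G protein and kinase genes 1 was above and 1 below. Over all tested genes 4.90% were above and 3.27% below. Of 12 regulators reported for CXCR4 11 were tested, led by the hypoxia factor EPAS1 at 301.6 CPM, FOXC1 at 261.9 CPM, HIF1A at 174.6 CPM and YY1 at 139.3 CPM. Of these 11 regulators 1 was separated between codes A and B, below in code A as 3.27% of all tested genes were. It was SP1, a factor that binds GC boxes, at 79.3 CPM in code A and 111.1 CPM in code B. NRF1, whose palindrome is in the CXCR4 stretch, overlapped between these codes, at 26.6 CPM in code A and 26.9 CPM in code B. The hypoxia-induced genes were led by VEGFA at 75.9 CPM, BNIP3 at 62.4 CPM, KDM3A at 59.0 CPM and SLC2A1 at 38.5 CPM. Of 11 tested, 1 was above in code A, ANKRD37, at 20.2 CPM in code A and 12.4 CPM in code B, and 1 was below, NDRG1, at 29.3 CPM in code A and 44.8 CPM in code B. Of 20 genes of neuroblast migration and guidance all were tested, led by SLIT3 at 283.4 CPM, NCAM1 at 276.0 CPM, L1CAM at 256.9 CPM and PLXNA4 at 143.8 CPM, and SLIT3 was below in code A against code B, at 262.4 CPM in code A and 362.2 CPM in code B. In these 5 lists 0 genes passed against Control for any ligand. Median log2 fold changes against Control ran from 0.26 to 0.37 for guidance genes, 0.052 to 0.32 for regulators and 0.028 to 0.15 for hypoxia-induced genes. They ran from -0.035 to 0.12 for G protein and kinase genes and from -0.011 to 0.060 for sorting genes. Over all tested genes they ran from -0.044 to -0.020. All comparisons share the same Control libraries, and these medians were not tested.

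Genes with a pattern like that of each member were ranked by Pearson's r of log2 CPM over 18 libraries, among the 11995 protein-coding genes that averaged 5 CPM or more. The libraries share their codes, so r largely follows the code means and is given as a description. For CXCR4 the closest were the transketolase TKT (r = 0.94), AC092143.1 and the neuronal tubulin TUBB3 (r = 0.94 for each, overlapping genes), the cholesterol synthesis gene HSD17B7 (r = 0.93) and CCDC86 (r = 0.93). The most opposed were BTBD11 (r = -0.97), PGPEP1 (r = -0.94) and JADE2 (r = -0.91). After subtraction of each code's mean they were RCOR2, FAM171A2, CADM4, METTL3 and ZNF219 (r = 0.88 to 0.90), opposed by RAD51D (r = -0.91), DYM and BTBD11 (r = -0.87 for each). BTBD11 was thus among the most opposed by both measures, with levels of 13.6 to 19.5 CPM in code A, 19.8 to 24.2 CPM in code C and 25.6 to 28.9 CPM in code B. Within codes, the SD of CXCR4 was 31.25% of its mean in code A, 9.02% in code C and 7.92% in code B. The second measure therefore rests mainly on code A, where both TRV130 libraries were highest.

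For ACKR3 the closest were the cadherin CDH11 (r = 0.89), the carnitine palmitoyltransferase CPT1A (r = 0.89), ITPKB, TMEM86A and CNKSR3, and the most opposed the histone chaperone ASF1B, WDR5 and the kinetochore gene SPC24 (r = -0.90 for each). After subtraction of code means the highest was APOM (r = 0.75) and the lowest JADE1 (r = -0.78). For CXCL12 the closest were the potassium chloride cotransporter SLC12A7 (r = 0.90), the proton pump genes ATP6V0A1 and ATP6AP1 (r = 0.88 for each), NOMO1 and MOGS. The most opposed were MIS18A (r = -0.90), the kinase AKT1 (r = -0.89) and PCBP2 (r = -0.87). After subtraction of code means the values were at most 0.70, for P4HA1, and at least -0.76, for CDR2L.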

How the data were processed

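RNA was measured in 18 libraries, 3 in each of 6 groups. The deposited table holds raw counts per Ensembl gene, and all 58735 gene IDs were found in GENCODE 29, used for symbols, positions and exon lengths. The submitters' processing notes name HISAT2, featureCounts, FastQC and DESeq2 and the build GRCh38 (hg38), while settings and versions were not given in the sources used here. Extraction was by TRIzol with DNase I, and sequencing gave 150 bp pairs that carry no strand, per the labels' protocols, so overlapping genes share reads. The TRV130 names of code A carry a further digit before the code, which was ignored.

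The main analysis used edgeR 4.0.16 (R 4.3.3): filterByExpr (minimum count 10, 23231 genes), TMM scaling, and the robust quasi-likelihood test on all 18 libraries with 1 mean per group. Tests were two-sided, with Benjamini-Hochberg adjustment across the 23231 genes and calls at an adjusted p under 0.05. Log2 CPM used a prior count of 2, and standard errors were the log2 fold change divided by the square root of its F value. The biological coefficient of variation was 0.309, and 0.182 with library code in the model. Depth was 21211449 to 33123855 counts per library, and counting errors cover sampling of reads only. The test was checked on simulated counts. These had 1 mean per gene apart from changes in the morphine group, so the check does not cover differences between codes. Alternatives were DESeq2 1.42.0, RLE size factors, no filter, a fit to just the groups compared, library code or replicate number as a block, each library left out, and the fits without Control 1, Naloxone 1 and Naloxone 2. For levels by code, other scalings and left-out libraries were chosen after seeing the data.

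The 3 genes, the gene lists and these choices were made with earlier results of these data known. Named genes were the 3 members, any list member that passed, otherwise the 4 of each list with the highest mean CPM, and the 5 most and 3 least alike genes. For chemokine receptors and ligands those averaging at least 1 CPM were named. The opioid peptide precursors, CD74, SP1, NRF1, ANKRD37 and NDRG1 were named after their values were seen. So were the immune and mesenchymal markers and the genes that shared the order of codes. The authors' grouping was taken from the labels. The ACKR3 promoter is not shown. Of the genes that met the naming rule, 1 is not reported here.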

Additional observations from a re-analysis of the deposited data

How the results depend on the processing

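No member passed the threshold under any setting tried: of 141 fits with another tool, scaling, filter, set of samples or covariate 119 kept the direction, 22 had the opposite sign and 0 made a call, and the smallest adjusted p in these and the 324 fits with a library left out was 0.396. The mean log2 differences between codes kept their direction in the scalings and subsets tried. Outside TRV130 the replicate number coincides with the library code. Deviations from group means correlated with those of the same-numbered Control at 0.386 to 0.726 for numbers 2 and 3 and at -0.258 to 0.249 for number 1 outside TRV130. For TRV130 they ran from -0.534 to 0.457. Its numbers 2 and 3 differ in code from those Controls, so these values cannot decide on pairing. The numbers were not taken as pairs in the main fit, which leaves the spread between codes in its errors. For CXCR4 with morphine the SE was 0.55, and 0.19 with the library code block. With the replicate block the log2 fold changes that had the opposite sign were 0.0070 for CXCR4 and 0.033 for ACKR3 with morphine, 0.018 for ACKR3 with metamorphine, 0.0014 for ACKR3 with beta-endorphin and 0.038 for ACKR3 with the mean of the ligands. With the library code block they were 0.029 for CXCR4 and 0.026 for ACKR3 with morphine, and for ACKR3 0.020 with metamorphine, 0.0035 with beta-endorphin and 0.036 with the mean. Without the filter ACKR3 had 0.043 with morphine, 0.0070 with metamorphine, 0.024 with beta-endorphin and 0.021 with the mean, and CXCL12 had 0.014 with metamorphine. Without Control 1, Naloxone 1 and Naloxone 2, CXCR4 had 0.43 with morphine, 0.38 with metamorphine and 0.24 with beta-endorphin, CXCL12 had 0.11 with metamorphine and ACKR3 had -0.34 with naloxone. With the code block added to that subset, CXCR4 had 0.087 with morphine and CXCL12 0.096 with metamorphine. The cause of these changes was not tested.

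With each library left out in turn, 39 of 324 fits had the opposite sign. CXCR4 ranged from -0.38 to 0.41 with morphine, -0.59 to 0.38 with metamorphine, -0.59 to 0.22 with beta-endorphin, -0.47 to 0.56 with naloxone and -0.21 to 0.58 for the mean. ACKR3 ranged from -0.33 to 0.44 with morphine, -0.28 to 0.42 with metamorphine, -0.51 to 0.26 with TRV130, -0.38 to 0.43 with beta-endorphin, -0.096 to 0.60 with naloxone and -0.27 to 0.43 for the mean. CXCL12 ranged from -0.17 to 0.11 with metamorphine, -0.033 to 0.23 with TRV130, -0.024 to 0.24 with beta-endorphin and -0.021 to 0.25 for the mean. Over all genes the count called was 1 each for TRV130, beta-endorphin and naloxone with DESeq2, 9 for any difference among groups and 12 for the mean of the ligands. For that mean it was 3270 without the filter and 1 with the code block, and 0 to 366 with a library left out, the highest without Control replicate 3. Depth limited ACKR3 most, with a counting error of up to 12.1% in a library.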
